A study of Rattus norvegicus with 14 samples.

Results

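Of the 1185 probes on the arrays, 45 were higher in the soleus than in the heart of exercise-trained rats and are described here in all 14 samples. They were selected on the intensities of the 8 exercised samples. A probe was kept when its intensity was 1200 or more in both untreated samples and in all 4 exercised soleus samples, and when its geometric mean over the exercised soleus samples was at least 1.5 times that over the exercised heart samples. Each exercised sample was first divided by its median over the 416 probes filled in all 8, and empty heart cells were set to 1200. The detection parts of the rule alone left 405 probes, of which the other 360 serve for comparison and are called the other detected probes.

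RNA was measured in soleus and in heart (left ventricle where the labels name the part of the heart). Each tissue had 1 sample in each of 7 conditions. The 4 exercised conditions were 1 month (long) or 3 days (short) of treadmill training at 24°C, given with acclimation to 34°C (long and short combined) or without it (long and short exercise). The 3 unexercised conditions were heat at 34°C for 1 month (long heat) or 2 days (short heat) and no treatment (control). Per the labels, the RNA came from pools of animals, 3 pools per group, whereas the files hold a single value per probe and sample. No strain, age or sex is given in the sources used here.

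Soleus is a postural muscle of the lower leg built mainly of slow, oxidative fibres that work for long periods, and it is recruited in running. The ventricle contracts without pause and is also highly oxidative, so both tissues share slow contractile and mitochondrial genes. They differ in skeletal and cardiac isoforms of contractile proteins, ion channels and hormones. The identifiers on these arrays (702 with the prefix R, 483 with RG) are not paired with genes in the sources used here. No gene, marker or sequence can therefore be given, the tissue labels could not be checked against marker genes, and only a few probes are named in each comparison. In samples of whole tissue, fewer cells of a type and less RNA per cell cannot be told apart.

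Levels are given as multiples of a sample's median intensity over the 261 probes measured, that is at 1200 or more, in all 14 samples. A soleus minus heart difference is on the log2 scale. For differences, levels under 0.309, the limit of 1200 in the sample where it weighed most (soleus after short heat), were raised to that value. This scaling places the exercised differences 0.07 higher than the rule's own. The samples did not stand equally apart. Over the 261 probes the rank correlation of soleus with heart was 0.786 to 0.827 in the 4 exercised conditions, against 0.895 after long heat, 0.705 after short heat and 0.967 in the controls. The highest correlation between any 2 samples of the same tissue was 0.940 in soleus and 0.946 in heart, below that of the soleus control with the heart control. The short heat samples correlated least with the rest of their tissue, with a median of 0.760 in soleus and 0.834 in heart, and soleus after short heat had the fewest probes measured, 531. Each result on the unexercised samples is therefore given by condition.

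The ratios that chose the 45 probes ran from 1.503 to 6.30 with a median of 1.70, and 33 of them lay under 2. Just inside the limit were RG538 (1.503) and RG155 (1.505). Just outside were RG091 (1.49) and RG197 (1.48). The ratio reached 1.5 in all 4 exercised conditions for 9 members, in 3 for 19, in 2 for 12, in 1 for 3 and in none for 2, on the 14-sample scale with its floor. In 13 members at least 1 exercised heart cell was empty and stood at the limit, so that their ratios depend on the limit. RG318 was empty in all 4 exercised hearts, where its ratio of 1.85 sets soleus against the limit alone.

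RG148 had the largest ratio. Its level was 4.93 in soleus after long combined treatment, 3.97 after short combined treatment, 4.61 after long exercise and 4.33 after short exercise, against 0.653, 0.721, 0.668 and 0.649 in the hearts of the same conditions. No exercised soleus sample came near any exercised heart. Without exercise its level was 2.62 in soleus after long heat, 4.37 after short heat and 1.33 in the control, against 0.680, 1.49 and 0.547 in heart. Soleus lay above heart in each of these pairs too, although the soleus control was below the heart after short heat. In deposited units the soleus control held 9951 and the heart control 3267.

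RG337 followed with a ratio of 3.65. Its level was 1.04, 0.683, 1.19 and 0.589 in soleus after long combined, short combined, long exercise and short exercise, against 0.216, 0.240, 0.231 and 0.192 in heart. Without exercise it was empty in soleus and in heart after both long and short heat, and stood at 0.346 in the soleus control against 0.272 in the heart control. Both tissues were thus without a measured value in each heated unexercised pair, and the probe was left out of the unexercised test.

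RG210, with a ratio of 3.47, kept a tissue difference throughout. In soleus its level was 1.13, 1.42, 0.900 and 1.51 in the exercised conditions in the same order, against 0.357, 0.417, 0.330 and 0.251 in heart. In the unexercised soleus it was 1.11 after long heat, 0.927 after short heat and 0.904 in the control, against 0.635, 0.439 and 0.500 in heart. All 7 soleus samples lay above all 7 hearts.

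**Figure D1:**
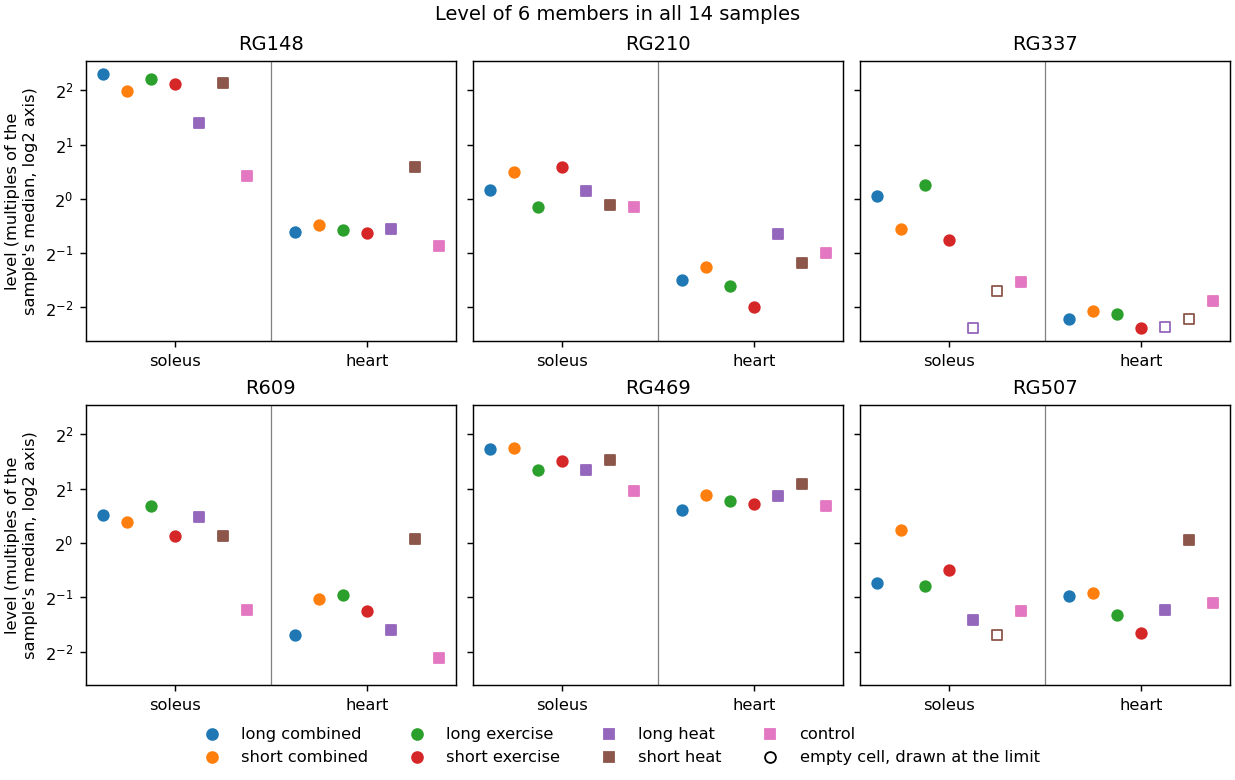
Level of 6 members in each of the 14 samples, in multiples of the sample's median on a log2 axis, with soleus left of heart in each panel. Circles are exercised and squares unexercised samples, and open symbols are empty cells drawn at the limit. RG148 spans 1.33 to 4.93 in soleus and 0.547 to 1.49 in heart, RG210 separates the tissues in all samples, and RG337 lies at 0.589 or more in the exercised soleus samples and at 0.346 or less elsewhere.

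RG469 had, after RG148, the highest exercised soleus level among the members. It stood at 3.30, 3.36, 2.52 and 2.85 in the exercised soleus samples and at 1.53, 1.84, 1.71 and 1.64 in the exercised hearts. In soleus it was 2.53 after long heat, 2.87 after short heat and 1.95 in the control, against 1.83, 2.12 and 1.60 in heart. The direction held in each of the 7 pairs, with differences of 0.28 to 1.11.

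**Figure D2:**
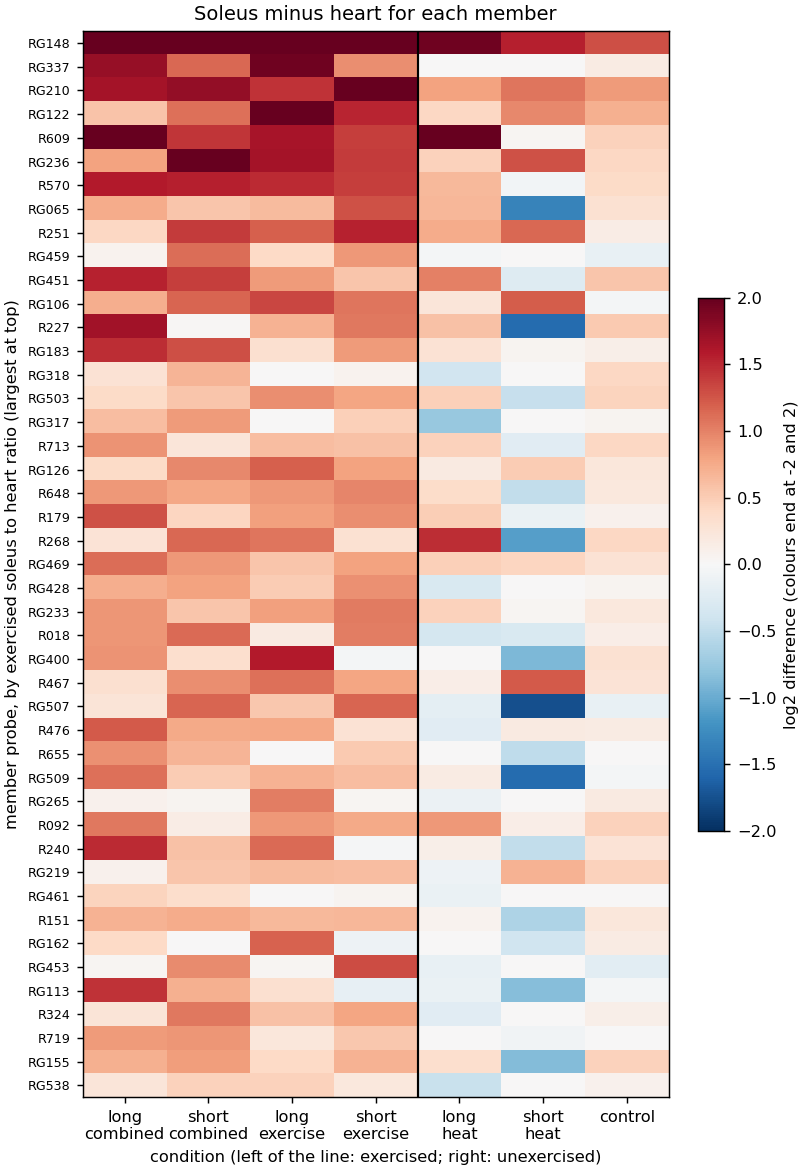
Soleus minus heart on the log2 scale for each of the 45 members (rows, ordered by the ratio that chose them) in the 7 conditions, with the exercised conditions left of the line. Red is higher in soleus and blue higher in heart, and the colours end at -2 and 2. The exercised columns are mostly red because they chose the members, while the unexercised ones are paler in long heat and control and mixed in short heat.

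The unexercised samples, which the rule used only for the detection limit in the 2 controls, show how far the tissue difference was present without training. The median difference of the 45 members was 0.77 to 0.84 in the 4 exercised conditions, which chose them, against 0.17 after long heat, 0.00 after short heat and 0.22 in the controls. For the other detected probes the unexercised medians were 0.00, 0.00 and -0.08 in the same order.

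In the controls soleus was the higher tissue for 36 of the 45 members (80%) and for 93 of the 360 other probes (25.8%), or 31.9% of all 405. On the scaled values 3 members (6.67%) reached 1.5-fold in soleus, against 0.988% of the 405 detected probes. These 3 were RG148, RG210 and RG122, the last named because the count is small. Without scaling, which raises soleus over heart in the controls by 0.32 on the log2 scale, 24 members reached 1.5-fold. The count of 3 therefore depends on the scaling. The share of the 405 detected probes was not taken without scaling, so the 24 cannot be set against a background. After long heat 26 members (57.8%) were higher in soleus, against 45.4% of the 405, while 14 were lower and 5 stood at the floor in both. There 9 members (20%) reached 1.5-fold, against 4.94% of the 405.

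After short heat soleus was the higher tissue for 15 members (33.3%), against 41.7% of the 405 detected probes. It was the lower for 20, and 10 stood at the floor in both, against 159 and 47 of the 360 other probes. The 8 members (17.8%) that reached 1.5-fold in soleus compare with 20% of the 405 detected probes, so this share is at the background. Only 24 of the 45 members were measured at all in soleus after short heat, against 273 of the 360 other probes. In heart after short heat these counts were 31 and 290. The part of the low number of probes measured in this result was not tested.

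**Figure D3:**
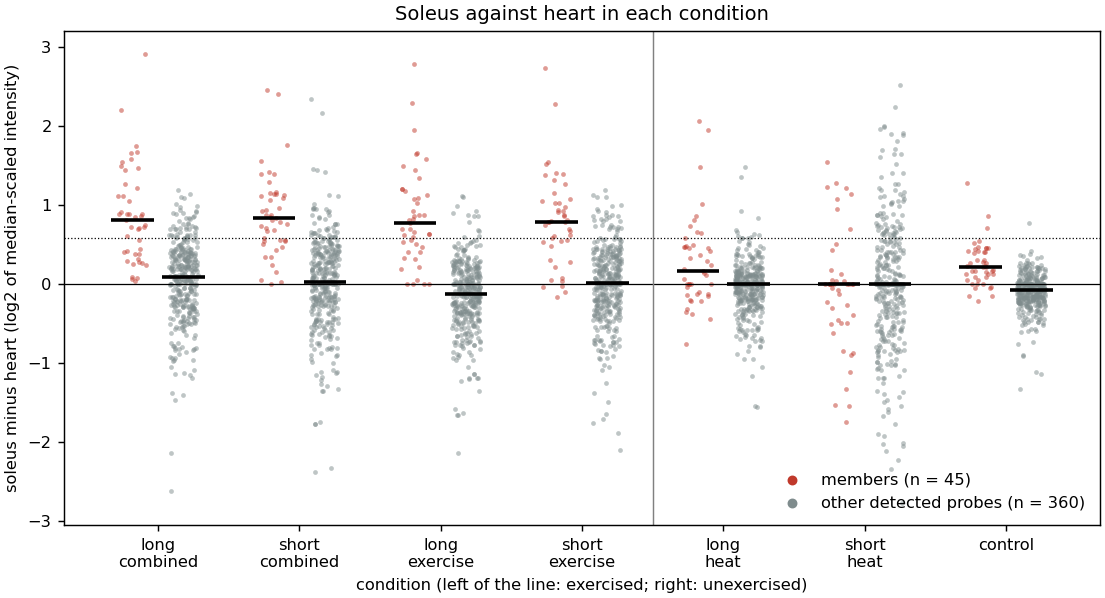
Soleus minus heart on the log2 scale in each condition for the 45 members and the 360 other detected probes. Each point is a probe, bars are medians, and the dotted line marks 1.5-fold. Medians of the members are 0.77 to 0.84 in the exercised conditions that chose them, and 0.17, 0.00 and 0.22 in long heat, short heat and control.

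Soleus was higher in all 3 unexercised conditions for 12 members (26.7%), against 10.4% of the 405 detected probes. All 3 unexercised soleus samples lay above all 3 unexercised hearts for 4 members, against 2.47% of the 405. These were RG210, RG236, R251 and R092, named after their values were seen. RG236 stood at 0.850, 0.810 and 0.751 in soleus after long heat, after short heat and in the control, against 0.614, 0.334 and 0.561 in heart. R251 stood at 1.00, 1.54 and 1.10 in soleus, against 0.599, 0.700 and 0.986 in heart in the same order. The margin between the tissues was therefore widest after short heat for both probes. In the limma fit described next they had adjusted p-values of 0.548 and 0.585. Leaving out short heat, soleus was higher in both long heat and control for 24 members (53.3%) and for 59 of the 360 other probes (16.4%).

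The difference was tested with limma on the 6 unexercised samples, paired by condition and adjusted over 579 probes. Of the 41 members that entered the test, 0 passed, where 0% of all 579 probes passed as higher in soleus. The other 4 members lay above the floor in fewer than 3 of the 6 samples. At an unadjusted p under 0.05 there were 5 members, all higher in soleus, and 20 of the 579 probes in that direction. RG148 had the largest difference, 1.59 ± 0.21 (SE), with a limma adjusted p of 0.152. RG210 had 0.91 ± 0.18 with a limma adjusted p of 0.271. Both were higher in soleus in 3 of 3 conditions. The smallest values were -0.70 ± 0.37 for RG507 and -0.47 ± 0.38 for RG509, with limma adjusted p-values of 0.705 and 0.722. RG507 was empty in soleus after short heat and stood at the floor there.

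This outcome was different when the short heat pair was left out. Without the short heat pair, 10 of the 41 members (24.4%) passed, all higher in soleus, against 4.84% of the 579 probes called in that direction. These 10 were 35.7% of the 28 probes called higher. Their differences ran from 0.48 to 1.62 on the log2 scale, and the largest limma adjusted p among them was 0.0465. The lowest limma adjusted p-values were those of RG148 (3.16e-13, difference 1.62) and R609 (4.64e-08, difference 1.26), both named after their values were seen. That fit rests on 2 pairs and takes nearly all of its spread from the other probes. Its p-values therefore do not measure how far apart a probe's own 2 differences lay. The members' median standard error was 0.17 there, against 0.22 with all 3 pairs. The parts of the left-out values and of the changed spread were not tested. In the left-out short heat pair 3 of these 10 members were 1.5-fold higher in soleus and 5 were lower there. With the spread pooled over all 14 samples and all 3 unexercised conditions kept, RG148 alone of the members passed (limma adjusted p = 0.0041).

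R609 shows how much 1 pair can weigh. In soleus its level was 1.43, 1.30, 1.61 and 1.09 in the exercised conditions (long combined, short combined, long exercise, short exercise), against 0.310, 0.486, 0.513 and 0.420 in heart. Its unexercised levels were 1.39 in soleus after long heat, 1.09 after short heat and 0.425 in the control, against 0.330, 1.05 and 0.231 in heart. The tissues were therefore 2.07 apart on the log2 scale after long heat, 0.46 in the control and 0.04 after short heat, where the heart level was high. The 2 pairs kept in the fit without short heat thus also differed widely from each other.

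The exercised medians come from the values that chose the members. For values outside the choice, the rule was applied to 3 exercised conditions at a time and the chosen probes were read in the condition left out, a step added after the data had been seen. The 51 probes chosen without long combined treatment had a median difference of 0.32 there, and 20 of them (39.2%) reached 1.5-fold, against 17% of the 441 probes detected by the same criteria. For short combined treatment the median was 0.68 over 56 probes and 29 (51.8%) reached 1.5-fold, against 16.4% of 445. For long exercise it was 0.43 over 55 probes and 23 (41.8%) did so, against 10.5% of 408. For short exercise it was 0.70 over 49 probes and 28 (57.1%) did so, against 14.8% of 418. The probes not chosen had medians of 0.07, 0.00, -0.12 and 0.00 in these left-out conditions, in the same order. The 4 chosen lists had medians of 0.00 to 0.24 after long heat, 0.00 after short heat and 0.12 to 0.19 in the controls. In these 3 conditions 7 to 11, 8 to 13 and 3 to 5 of each list reached 1.5-fold. Of the 405 probes detected by the full rule, 4.94%, 20% and 0.988% did so in the same order. The short heat counts thus lay near the background. Each list thus had a larger median difference in its left-out exercised condition than in any unexercised condition, which is a description and has no test. The lists held 33 to 43 of the 45 members each, so they largely repeat the same probes and are not independent of one another.

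Over all 405 detected probes, whatever their ratio, the mean exercised difference and the control difference had a Pearson correlation across probes of 0.69 (Spearman 0.54). For long heat these were 0.54 and 0.36, and for short heat 0.23 and 0.17. The probes of each comparison share the same samples, and probes are not independent replicates. A line through the points had a slope of 0.38 for the controls, 0.44 for long heat and 0.38 for short heat. The SD of the differences over the 405 probes was 0.48 for the exercised mean, against 0.39 after long heat, 0.79 after short heat and 0.26 in the controls.

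**Figure D4:**
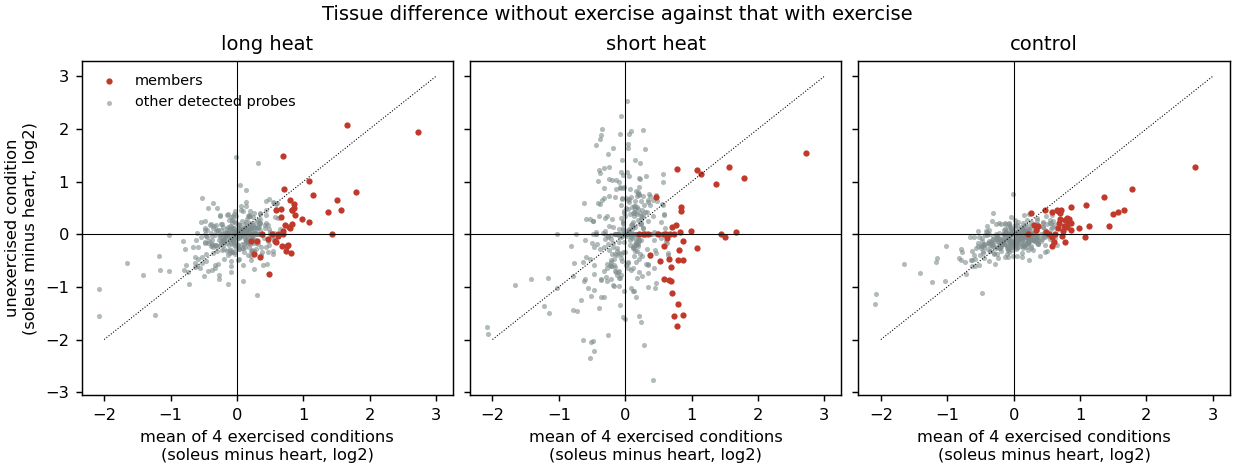
Soleus minus heart on the log2 scale in each unexercised condition against the mean of the 4 exercised conditions, for 405 detected probes with the 45 members in red. The dotted line marks equal differences. A line through the points is flatter than the dotted line in all 3 conditions. Points scatter most widely in short heat (r = 0.23), against r = 0.54 in long heat and r = 0.69 in control.

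Most members lay higher in the exercised soleus and lower in the exercised heart than in the unexercised samples of the same tissue. The exercised samples chose the members, so these values are descriptions. In soleus the exercised minus unexercised difference of the members had a median of 0.38 on the log2 scale, and 43 of 45 were higher with exercise, against 59.5% of all 405 detected probes. In heart the median was -0.21, and 34 of 45 were lower with exercise, against 46.9% of the 405. The other detected probes had medians of 0.03 in soleus and 0.04 in heart. Without short heat, where 24 members were measured in soleus and 31 in heart and the others stood at the floor, the members' median was 0.36 in soleus with 37 higher, against 57.5% of the 405. In heart it was then -0.11 with 29 lower, against 49.6% of the 405, so the heart median depended on that sample. All 4 exercised soleus samples lay above all 3 unexercised ones for 13 members (28.9%), against 14.8% of the 405 detected probes. All 4 exercised hearts lay below all 3 unexercised ones for 5 members (11.1%), against 2.72% of the 405.

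By sample, the median level of the members was 0.685 in soleus after long combined treatment, 0.692 after short combined treatment, 0.900 after long exercise and 0.768 after short exercise. In the unexercised soleus it was 0.631 after long heat, 0.383 after short heat and 0.525 in the control. The soleus values of the exercised samples were all above those of the unexercised ones. In heart the median was 0.384 to 0.412 in the 4 exercised samples, against 0.520 after long heat, 0.474 after short heat and 0.468 in the control. The heart order was the opposite one, with every exercised sample below every unexercised one. The choice of members by the exercised samples favours both orders, so they are descriptions. For the other detected probes the soleus medians were 0.706 to 0.727 with exercise and 0.672 to 0.781 without it. Their heart medians were 0.718 to 0.794 with exercise and 0.698 to 0.795 without it.

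The largest exercised minus unexercised values in soleus were 1.39 for RG337 and 1.11 for R227, with empty cells at the floor in 2 and in 1 of the 3 unexercised samples, so both depend on the floor. R151 and RG509 had the next largest values, 1.10 and 1.09, and R151 also stood at the floor in soleus after short heat. R227 stood at 0.990, 0.608, 1.40 and 0.650 in the exercised soleus samples and at 0.462 after long heat and 0.444 in the control, and it was empty in soleus after short heat. At the other end were RG538 (-0.10) and RG318 (-0.02), whose soleus levels differed little with exercise. RG538 stood in heart at 0.234, 0.272 and 0.285 after short combined treatment, long exercise and short exercise and was empty after long combined treatment, against 0.603 after long heat, an empty cell after short heat and 0.515 in the control. Its exercised hearts were thus below 2 of the 3 unexercised ones.

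The rule used the mean tissue ratio over the exercised conditions and not the differences among those conditions, although it drew on the same 8 samples and required a measured value in each exercised soleus. A change of the ratio with heat or with the length of training was tested with limma on the 4 soleus minus heart differences, over 590 probes, of which 42 were members. For heat added to training, a change of the ratio passed for 0 members, where 0% of the 590 probes passed. Unadjusted p-values under 0.05 were found for 3 members and for 50 probes. The lowest limma adjusted p among members was 0.303, for RG122 (-1.08 ± 0.40, SE), and RG113 had the lowest on the higher side (0.99 ± 0.40, limma adjusted p = 0.383). RG265 and RG183, next on each side, had -0.47 and 0.79. RG122 stood at 0.685 and 0.661 in soleus after long and short combined treatment, against 1.58 and 0.885 after long and short exercise.

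For long against short training, a change of the ratio likewise passed for 0 members in limma, where 0.678% of the 590 probes passed. Unadjusted p-values under 0.05 were found for 5 members and for 71 probes. RG400 (1.09) and R240 (1.03) had the largest statistics toward a higher ratio after 1 month, and RG453 (-1.08) and RG507 (-0.77) toward a higher ratio after 3 days. RG400 and RG453 had a limma adjusted p of 0.145, and each of these tests had a standard error of 0.40. R240 in soleus stood at 0.873 and 0.838 after long combined treatment and long exercise, against 0.487 and 0.239 after short combined treatment and short exercise, while its heart levels lay between 0.310 and 0.382. RG453 had the reverse order, at 0.476 and 0.516 after the long treatments and 0.866 and 0.768 after the short ones in soleus. Its heart levels were 0.462 and 0.500 after the long treatments and 0.452 and 0.239 after the short ones, the last under the floor. With 1 residual degree of freedom the spread in both tests was shared over all probes. The counts of 0 members therefore do not show that the ratios stayed the same.

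Among the members 2 features that the rule did not use were more frequent than among the other detected probes. Probes with the prefix RG made up 28 of the 45 (62.2%), against 140 of the 360 other detected probes (38.9%) and 40.8% of all probes. Members also lay next to one another in the row order of the deposited files, which is the same in all 14 files. What that order stands for is not stated in the sources used here. Of the 45 members, 25 (55.6%) had another member in the row before or after, against 22 of the 360 other probes (6.11%) with a member there. One run of 4 consecutive rows held RG122, RG148, RG236 and RG265 in rows 521 to 524, all with the prefix RG, and 3 runs of 3 rows were found. The 2 features thus overlap, and the part of one in the other was not tested.

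Adjacent rows resembled each other beyond the members. Over the 237 pairs of detected probes in adjacent rows, the exercised soleus minus heart difference had a correlation across pairs of 0.42. It was 0.22 after long heat, 0.48 after short heat and 0.35 in the controls. For probes 10 rows apart it was 0.04 with exercise, -0.05 after long heat and 0.11 in the controls, but 0.31 after short heat, so in that pair of samples the difference also varied over longer stretches of rows. RG122 and RG148, both at least 1.5-fold higher in soleus in the controls, lie in adjacent rows. Counts of members therefore need not be counts of independent probes. The part of row position in the members' ratios was not tested.

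**Figure D5:**
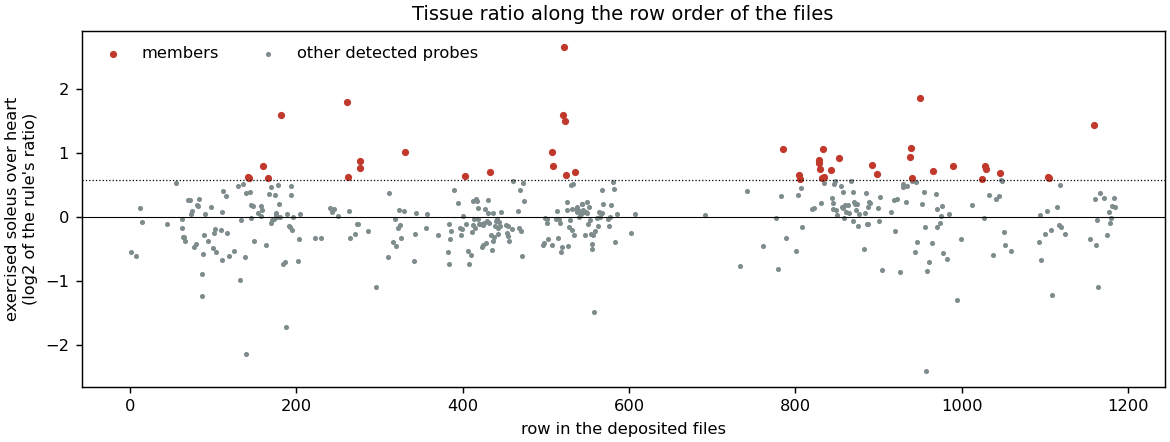
The ratio that chose the members, on a log2 scale, along the row order of the deposited files for the 405 detected probes. The dotted line marks 1.5-fold, and members are red. Members fall in short runs, including 4 consecutive rows around RG148 at row 522.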

How the data were processed

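The deposited per-sample files hold 1 array intensity per probe on a linear scale in arbitrary units. Per the labels, total RNA was prepared with Tri-Reagent and labelled with 32P by a Clontech protocol. For image software, background subtraction and scaling, nothing is stated in the sources used here. In 4 of the deposited files some lines hold a probe and no second cell, so their unit was recorded as other, with values of the same kind. Of the cells of the 12 treated samples 39.3% are empty, and no value there is under 1200. The controls were cut at the same limit. The deposited series table, with intensity in relative units and the same empty cells, was an alternative.

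Samples were scaled by their median over 261 probes, raised to a common floor and transformed to log2. Median scaling was preferred to quantile normalization because the number of probes measured differs widely, and quantile normalization was an alternative. Tests were two-sided in limma 3.58.1 (R 4.3.3) with Benjamini-Hochberg adjustment over all probes tested, at 0.05. The unexercised fit held condition as a block and probes above the floor in at least 3 of 6 samples. The heat and duration fits took probes above it in at least 4 of 8. No condition was repeated within a tissue. In the unexercised fit the residual spread was how the soleus minus heart difference varied among the 3 conditions. Differences between treatments therefore count as spread there. In the heat and duration fits it was how far the heat effect differed between long and short training. Spread between animals or arrays was not measured apart from these. Nothing says which animals stand behind which sample, so part of the spread may also be technical, and the number of arrays limits precision. The members and lists were chosen with earlier results of these data known. Probes were named by rank within each comparison, at most 2 in each direction, with exceptions stated.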

Additional observations from a re-analysis of the deposited data

Results flagged for a closer look

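RG507 stood out because soleus was the higher tissue in all 4 exercised conditions and the lower in all 3 unexercised ones. Its mean unexercised difference was -0.70 on the log2 scale. The exercised differences, which chose it, were 0.25, 1.16, 0.53 and 1.16 after long combined, short combined, long exercise and short exercise. Those without exercise were -0.20 after long heat, -1.75 after short heat and -0.15 in the control. In soleus its level was 0.602, 1.17, 0.578 and 0.705 in the exercised samples, against 0.372 after long heat and 0.422 in the control, and it was empty after short heat. In heart it was 0.505, 0.527, 0.400 and 0.316 with exercise, against 0.427 after long heat, 1.04 after short heat and 0.468 in the control. Most of the mean comes from the short heat pair, whose arrays correlated least with their tissues. The empty soleus cell of that pair stood at the floor, so the size of the -1.75, and with it the mean, depends on the floor. The difference between exercised and unexercised conditions was not tested, because the exercised samples chose the probe.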

How the results depend on the processing

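The count of 0 members higher in soleus without exercise came to 1 with the spread pooled over 14 samples, and leaving out 1 condition gave 0 to 10, the 10 without short heat. It was 0 under the other settings run, the fit without the condition block among them, and the heat and duration counts were 0 under every setting run. Without scaling, soleus exceeded heart over the 261 common probes by 0.32 in the controls and fell by 0.52 relative to heart after short heat. The members' medians were then 0.59 in the controls and -0.47 after short heat, and 24 members reached 1.5-fold in the controls. That control count of 3 came to 1 under quantile normalization, 5 with each sample's own floor and 1 at 2-fold. The long heat count of 9 came to 4 at 2-fold, and the long heat median came to 0.031 in the series table. For the 1.5-fold and 2-fold counts at these settings no share over the 405 detected probes was taken. The rule chose 93 probes at a looser fold, 12 at 2-fold and 68 without scaling, the last holding all 45 members, while the series table chose 41, of which 32 were members. Lists chosen without 1 exercised condition held 33 to 43 of the members. RG509 ranged from -0.79 to 0.062 when 1 condition was left out, the positive value without short heat. With that pair left out RG148 (1.62) and RG210 (0.83) passed. The cause was not tested for the settings that only rescale the samples.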

Other observations

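The factor between the 2 deposited tables, intensity divided by relative value, varied among probes in the treated samples, most in heart after short heat, where its 5th and 95th percentiles were 2053 and 3903. In the controls it was almost the same for all probes, with these percentiles at 4761 and 4792 in soleus and at 4738 and 4795 in heart. Between consecutive filled rows of the files this factor correlated at 0.21 to 0.57 in the 12 treated samples, against 0.02 in the soleus control and 0.09 in the heart control. In the series table the exercised soleus minus heart difference correlated at 0.41 between detected probes in adjacent rows, against 0.42 in the per-sample values.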
